A study of Rattus norvegicus with 32 samples.

Results

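The heat shock chaperones examined here are 9 genes, Hspa1a, Hspa1b, Hspb1, Dnajb1, Hsph1, Hsp90aa1, Hspa8, Hspe1 and Hspd1, which were chosen by name among the 28914 genes of the count files. Of these names, 8 are gene names in the files. Hspa1b is not, but the row LOC108348108 carries the RefSeq gene number of Hspa1b and was taken as its row. RNA-seq was run on 4 brain regions, the NAc (nucleus accumbens), the DG (dentate gyrus), the CA (Ammon's horn, also hippocampal) and the SVZ (subventricular zone), of adult male Sprague-Dawley rats. The rats had been given methamphetamine (METH, 10 mg/kg) or saline (Sal) in 4 intraperitoneal injections 2 h apart, and tissue was collected on the following day. There were 32 libraries, 4 METH and 4 Sal for every region, and groups are named by region and treatment. The core temperature of the rats was recorded during the injections, and those readings were not analysed here.

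Chaperones bind proteins that are unfolded or not yet folded and keep them from aggregating. Hsp70 proteins such as Hspa8 and Hspa1b hold short exposed stretches in a cycle of ATP use. In that cycle a J-protein such as Dnajb1 delivers the client and starts ATP hydrolysis, and Hsph1 (Hsp110) exchanges the nucleotide. Hsp90aa1 acts later on kinases, steroid receptors and other clients, and the small heat shock protein Hspb1 (Hsp27) holds unfolded proteins without ATP. Hspd1 (Hsp60) and its lid Hspe1 (Hsp10) fold proteins inside mitochondria. When unfolded protein builds up, heat shock factor 1 (Hsf1) binds heat shock elements, which are repeats of nGAAn in alternating direction, and Hspa1a, Hspa1b, Hspb1 and Dnajb1 are textbook targets. Hspa8 is the constitutive Hsp70, abundant in neurons.

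The sequences just before the start sites are shown for the 5 members that illustrate these elements, since the members are grouped as targets of 1 factor. RefSeq (GRCr8) gave a window of 250 bases before and 50 after the start for 7 of the 9 members, and none was at hand for Hspa1b and Hsp90aa1. Capitals mark the fixed letters of GAANNTTC and TTCNNGAA, each of which reads the same on both strands. All stretches are 5′ to 3′ on the strand of the gene and end before the start site.
Hspa8 (chr8:50080444-50080486, plus strand): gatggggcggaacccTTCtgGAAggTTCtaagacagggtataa
Hsph1 (chr12:10427317-10427359, plus strand): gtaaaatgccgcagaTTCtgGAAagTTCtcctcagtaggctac
Hspb1 (chr12:26432388-26432445, minus strand): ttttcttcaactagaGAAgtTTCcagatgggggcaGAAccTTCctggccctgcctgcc
Dnajb1 (chr19:41431142-41431167, minus strand): gcatcgggaggggcgGAAggTTCtgg
Hspe1 (chr9:64084247-64084294, plus strand): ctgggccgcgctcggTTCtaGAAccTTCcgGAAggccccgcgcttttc

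Hspd1 and Hspe1 stand head to head, and the Hspd1 window reads the marked bases of Hspe1 from the other strand. GAANNTTC was found in 6 of the 7 windows, against 8.59% of all 33469 windows in the table, and TTCNNGAA in 4 of 7, against 8.77%. The 2 words can overlap in their outer 3 letters and then form a run of 3 units. Such runs, GAANNTTCNNGAA or TTCNNGAANNTTC, lay in the windows of Hspa8, Hsph1, Hspe1 and Hspd1, against 0.798% of all windows. In the Hspa1a window neither word was found, which says only that these letters are not in that window. These matches describe the sequence and were not linked to any measured binding.

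The authors deposited read counts per gene, and the total per library was 11094002 to 21869773. Expression is given in counts per 1000000 reads (CPM) relative to upper-quartile library sizes, in which 1 read was worth 0.0442 to 0.0934 CPM. Differences were tested with edgeR's quasi-likelihood test on all genes that passed its filter on low counts. Log2 fold changes are METH against saline with their standard error (SE), and FDR is the Benjamini-Hochberg adjusted p. A gene was called at an FDR under 0.01 and a fold above 1.5. The labels do not say that libraries of a group come from separate rats, so p-values measure the spread between libraries.

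Some libraries stand apart from their labels, and results that rest on them are given with and without them. The file headers name each library with a tag (JJ, Bo-RNA2, Bo-RNA3, WangT or merged), and no source used here says what a tag stands for. CA Sal 1 and 2 are the merged libraries, which may join reads of several tags. In the library numbers of the headers, DG Sal 1 and 2 carry the numbers that METH 1 and 2 have in the NAc and CA, and DG METH 1 and 2 carry those of Sal 1 and 2. The 4 SVZ METH libraries carry 2 numbers, 1669 for METH 1 and 2 and 1670 for METH 3 and 4, so p-values in the SVZ may be too small. Numbers recur across the NAc, DG and CA, so these regions may share rats, which the fits over regions do not account for. P-values of the shared METH effect may then be too small, and those of differences between regions may be off in either direction. The summed level of 6 markers of striatal medium spiny neurons was 106 CPM in NAc METH 3 and 1110 to 6441 CPM in the other NAc libraries. DG Sal 3 had 1350 CPM, and the remaining DG libraries 71.3 to 274 CPM. The 5 markers of dentate granule neurons did not separate the DG from the CA, since their sums were 106 to 560 CPM (DG) and 136 to 608 CPM (CA). Nor did they set DG Sal apart from the NAc and SVZ. Their median sum was 157 CPM in DG Sal, 411 in DG METH, 159 in NAc Sal and 192 in SVZ Sal. These sums are therefore given below as marker levels, not as amounts of granule neurons. In bulk tissue, fewer cells of a type and less RNA per cell cannot be told apart.

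Per length, the constitutive Hspa8 was the most abundant member, with a median of 314 CPM per kilobase over the 32 libraries. It was followed by Hsph1 (106 CPM per kilobase), Hspe1 (83.6), Hspd1 (52.7), Dnajb1 (18.7), Hsp90aa1 (14.3), Hspb1 (5.03) and Hspa1b (0.271). The order was not equally firm. Hspa8 exceeded Hsph1, Hspe1 exceeded Hspd1, Hspd1 exceeded Dnajb1 and Hspb1 exceeded Hspa1b in 32 of 32 libraries. Hsph1 exceeded Hspe1 in 29, Dnajb1 exceeded Hsp90aa1 in 26 and Hsp90aa1 exceeded Hspb1 in 28 of them, so these neighbours overlapped. The lengths are those in the count files (267 bases for Hspe1, 1938 for Hspa8). Before division by length, the medians were 117 CPM for Hspd1 and 22.3 CPM for Hspe1, so the order of this pair rests on the lengths. Only reads with a mapping quality of at least 10 were counted, and RefSeq lists 33 pseudogenes of Hspa8, 20 of Hspd1, 16 of Hsp90aa1 and 1 of Hspe1, so the levels of these genes are uncertain.

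The spread was narrow for the abundant members and wide for the other 2. From the lowest to the highest library, Hspa8 differed by 1.69-fold, Dnajb1 by 1.77-fold, Hspd1 by 1.85-fold, Hspe1 by 2.11-fold, Hsph1 by 2.18-fold and Hsp90aa1 by 2.93-fold. Hspb1 spanned 2.09 to 47.4 CPM, a 22.7-fold range. Hspa1b stayed between 0 and 2.17 CPM, which is 0 to 35 reads. Hspa1a (rn6, chromosome 20 from 2699712 to 2701815) had 0 reads in all 32 libraries, which allows up to 0.133 to 0.280 CPM per library (3 reads, counting error only). Hspa1a and Hspa1b are near-identical copies, and reads that fit both equally well fall under the limit on mapping quality. The level of the stress-inducible Hsp70 as a whole is therefore uncertain.

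**Figure D1:**
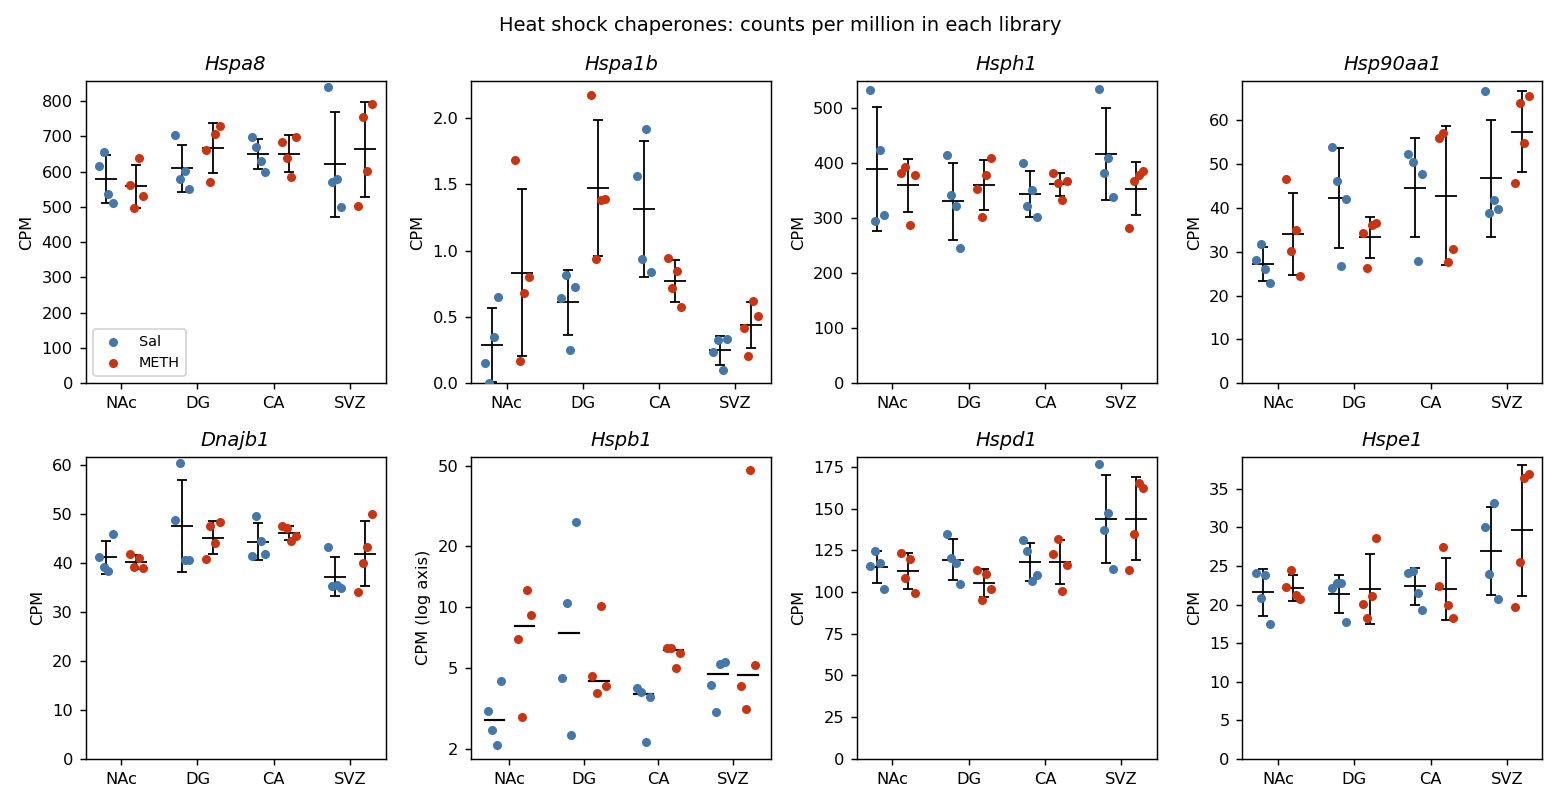
Each panel plots CPM (vertical axis) of 1 chaperone in the 32 libraries, by region and treatment. Points are libraries, and black marks are the mean and SD of 4 libraries, or the median for Hspb1, whose axis is logarithmic. Hspb1 and Hspa1b show the widest spread, and SVZ METH 3 stands at 47.4 CPM of Hspb1.

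The day after METH, 0 members were called in any region, and for all genes too the share called was 0% in the NAc, DG, CA and SVZ (0% of 14771, 14800, 14612 and 15579 genes tested by edgeR). These fits leave out the study's removal of unwanted variation, so the share called need not match that of the study. DESeq2 called 3, 175, 10 and 2 genes in the NAc, DG, CA and SVZ, 0 of them members. At an unadjusted p under 0.05, 4 of the 30 tests of a member in a region passed, and all 4 concern Hspb1 and Hspa1b, the latter at 4 to 35 reads per library. In the NAc it was 1 of 7 members (Hspb1, higher), against 3.39% of all genes. In the DG it was 1 of 8 (Hspa1b, higher), against 12.8%, in the CA 2 of 8 (Hspb1 higher, Hspa1b lower), against 7.16%, and in the SVZ 0 of 7, against 2.58%. Groups that did not overlap were seen for 0 of 7 members in the NAc (2.3% of all genes), 1 of 8 in the DG (6.8%), 1 of 8 in the CA (4.44%) and 0 of 7 in the SVZ (1.69%). The median log2 fold change of the members was -0.0020, 0.0044, -0.000031 and 0.16 in the NAc, DG, CA and SVZ, beside 0.029, -0.011, 0.0051 and 0.016 for all genes tested.

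**Figure D2:**
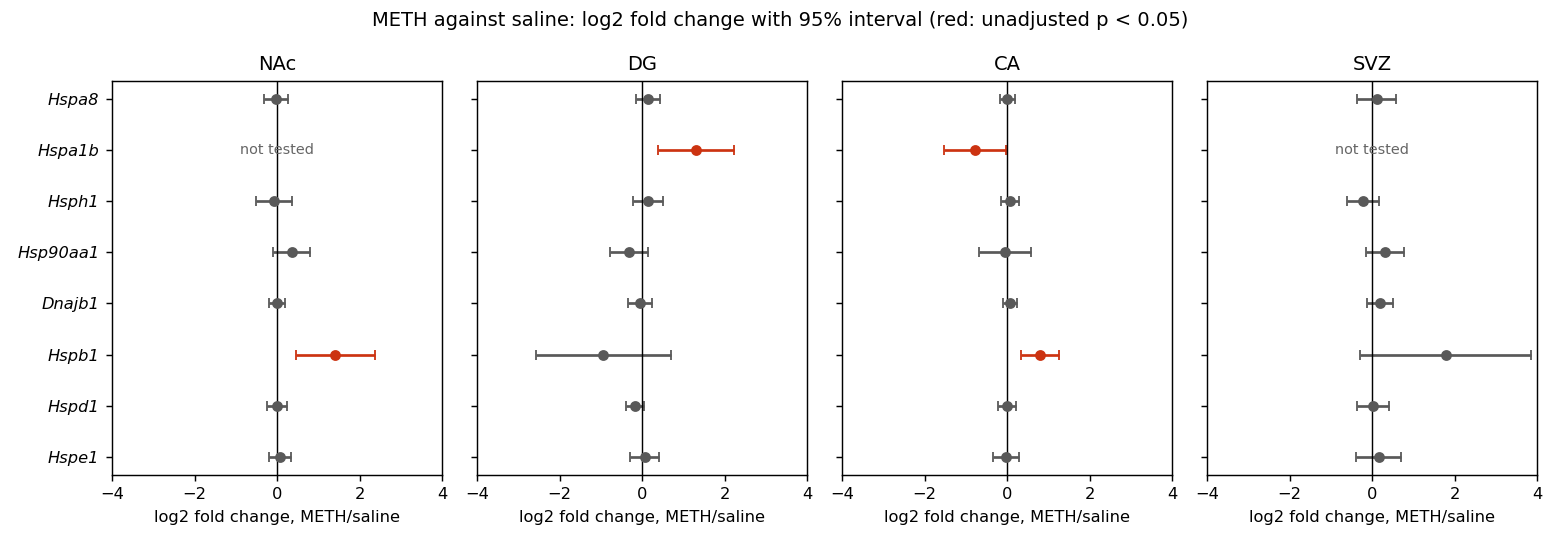
Log2 fold change of METH against saline (horizontal axis) for 8 members in each region, with 95% intervals from edgeR. Red marks an unadjusted p under 0.05, which is Hspb1 in the NAc (1.41) and CA (0.80) and Hspa1b in the DG (1.30) and CA (-0.78). The other 6 members lie close to 0 in all regions.

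Hspb1 (rn6, chromosome 12 from 23839399 to 23841049) encodes the small heat shock protein Hsp27, which holds unfolded proteins and also binds actin. In the NAc the Sal libraries 1 to 4 had 3.08, 2.48, 2.09 and 4.34 CPM, and the METH libraries 7.005, 2.87, 12.2 and 9.21 CPM. Of the METH libraries, 3 of 4 lay above every Sal library, and METH 2 lay within the Sal range. The means were 2.996 ± 0.984 CPM in Sal and 7.82 ± 3.92 CPM in METH (SD, n = 4). The log2 fold change was 1.41 (SE 0.42, 95% interval 0.45 to 2.37), with an unadjusted p of 0.0093 and an FDR of 0.999 by edgeR. Without NAc METH 3, the library poor in medium spiny neuron markers, it was 1.10 (unadjusted p = 0.025, edgeR). With the header tag as a covariate it was 0.61 (unadjusted p = 0.27, edgeR). Within the tag Bo-RNA3, which held both treatments, Sal had 2.09 and 4.34 CPM and METH 7.005 and 2.87 CPM.

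In the CA, Hspb1 had 4.001, 3.82, 2.16 and 3.62 CPM in Sal 1 to 4, and 6.27, 6.32, 5.01 and 5.98 CPM in METH 1 to 4. All METH libraries lay above all Sal libraries. The log2 fold change was 0.80 (SE 0.21, 95% interval 0.33 to 1.26), with an unadjusted p of 0.0037 and an FDR of 0.669 by edgeR. METH was also above Sal within each header tag that held both, while the merged Sal 1 and 2 had no METH partner. In Bo-RNA2, Sal 3 had 2.16 CPM and METH 5.01 and 5.98 CPM, and in Bo-RNA3, Sal 4 had 3.62 CPM and METH 6.27 and 6.32 CPM. With the tag as a covariate the log2 fold change was 1.07 (unadjusted p = 0.0012, FDR 0.891, edgeR). In 1 fit of all 32 libraries, whose common spread includes the DG and SVZ, it was 0.80 with an unadjusted p of 0.26.

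In the DG and SVZ single libraries set the mean of Hspb1. The DG Sal libraries had 4.50, 10.5, 2.34 and 26.5 CPM and the DG METH libraries 4.59, 3.76, 10.1 and 4.11 CPM, so the groups overlapped. The log2 fold change was -0.94 (SE 0.72, unadjusted p = 0.22, FDR 0.649, edgeR), and without DG Sal 4 it was 0.038 (unadjusted p = 0.95). Without DG Sal 1, Sal 2, METH 1 and METH 2 it was -1.03 (unadjusted p = 0.45). In the SVZ, Sal 1 to 4 had 4.14, 3.04, 5.28 and 5.35 CPM and METH 1 to 4 had 4.07, 3.14, 47.4 and 5.20 CPM. METH 3 stood alone, and the other 3 METH libraries lay within the Sal range. Its log2 fold change of 1.79 (SE 0.90, unadjusted p = 0.082, FDR 0.979, edgeR) became -0.10 without METH 3 (unadjusted p = 0.72).

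In 3 libraries high Hspb1 came with high markers of the choroid plexus, the tissue that makes cerebrospinal fluid. The summed level of 5 markers (Ttr, Folr1, Kl, Clic6 and Kcne2) was above 1000 CPM in 4 libraries. They were SVZ METH 3 at 7975 CPM, DG METH 3 at 6040, CA Sal 2 at 2191 and DG Sal 4 at 2055 CPM, and Hspb1 in them was 47.4, 10.1, 3.82 and 26.5 CPM. In the other 28 libraries Hspb1 had a median of 4.24 CPM and reached at most 12.2 CPM. CA Sal 2 shows that a high marker level also occurred with a low Hspb1 level. Over 32 libraries, deviations of Hspb1 from group means correlated at 0.67 with these markers (Pearson). The markers reached 383 CPM in SVZ Sal, 359 CPM in CA METH and 19.0 CPM in the NAc. SVZ METH 4, which has the same library number as METH 3, had 20.4 CPM of the markers and 5.20 CPM of Hspb1. In the NAc, Ttr had 0 reads in 2 METH libraries and Folr1 in 2 Sal and 2 METH libraries. Between treatments the markers and Hspb1 did not always move alike. Of 5 markers, 5 were higher in METH in the SVZ (median log2 fold change 2.9996, Hspb1 1.79) and 4 in the DG (median 1.43, Hspb1 -0.94). Of the 4 tested in the CA, 0 were higher (median -2.46, Hspb1 0.80), and of the 2 tested in the NAc, 1 was (median 0.090, Hspb1 1.41). In each region 0 of them passed an unadjusted p under 0.05. The part of these markers in the DG and SVZ values of Hspb1 was not tested.

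**Figure D3:**
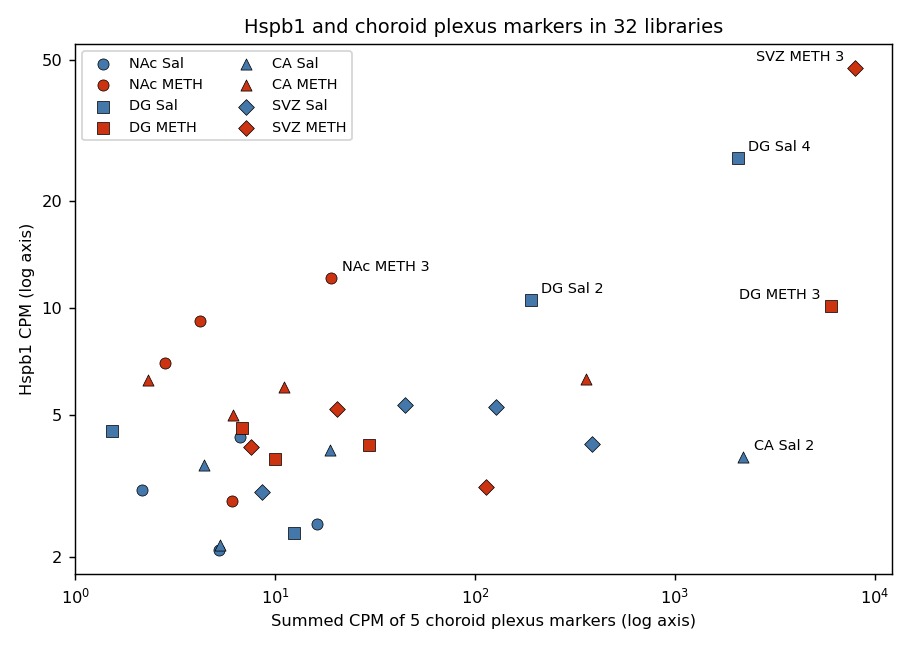
Hspb1 (vertical axis, CPM) against the summed CPM of 5 choroid plexus markers (horizontal axis), both logarithmic, for 32 libraries. Marker shapes are regions and colours are treatments. The libraries SVZ METH 3, DG Sal 4 and DG METH 3 lie at the upper right, while CA Sal 2 has many marker reads and 3.82 CPM of Hspb1.

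Markers of other cell types were higher in METH in the NAc and CA, where Hspb1 was higher too, and some also in the DG and SVZ. Of 5 astrocyte markers, 4 were higher in METH in the NAc (2 at an unadjusted p under 0.05), and 5 in the CA (1 at that level). Their summed level was 1861 to 2092 CPM in NAc Sal, 2163 to 3648 CPM in NAc METH, 1953 to 2731 CPM in CA Sal and 2392 to 2939 CPM in CA METH. Of 5 markers of vascular smooth muscle and pericytes, 5 were higher in the CA (0 at that level), with a summed level of 46.6 to 68.4 CPM in Sal and 59.4 to 91.4 CPM in METH. In the NAc, 4 of these 5 were higher (0 at that level, median log2 fold change 0.50, beside 0.40 in the CA), with 48.7 to 71.1 CPM in Sal and 54.9 to 88.9 CPM in METH. Of the 2 endothelial markers tested, 2 were higher in the CA (1 at that level) and 2 in the NAc (0 at that level). Astrocyte markers were also higher in the DG (5 of 5, 2 at that level), where Hspb1 had -0.94, and in the SVZ (4 of 5, 1 at that level). In the DG, 3 of 5 smooth muscle and pericyte markers and 1 of 2 endothelial markers were higher, and in the SVZ 2 and 0. Over 32 libraries, deviations of Hspb1 from group means correlated at 0.21 with astrocyte, 0.29 with smooth muscle and pericyte and -0.11 with endothelial markers (Pearson). Among all marker lists, the values farthest from 0 were 0.67 for choroid plexus and -0.50 for microglia markers. The part of these cell types in the Hspb1 values was not tested.

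Hspa1b (rn6, chromosome 20 from 4877324 to 4879779), the stress-inducible Hsp70, was near its detection limit, with a median of 9 reads per library. Its row lies within RT1-CE1, RT1-CE4 and RT1-CE7 on the same strand, outside their exons (median counts 11, 77 and 66), and how many of its reads are unspliced RNA of these genes was not tested. In the DG, Sal 1 to 4 had 0.644, 0.816, 0.252 and 0.724 CPM and METH 1 to 4 had 2.17, 0.940, 1.38 and 1.39 CPM. All METH libraries lay above all Sal libraries, on 4 to 9 reads in Sal and 13 to 35 in METH. The gene passed the filter on low counts in the DG through its METH libraries, so its place among the genes tested rests on the group where it is high. The log2 fold change was 1.30 (SE 0.40, 95% interval 0.38 to 2.22), with an unadjusted p of 0.011 and an FDR of 0.263 by edgeR, and with no filter it was 1.29 (unadjusted p = 0.014, FDR 0.385). Without DG Sal 3 it was 1.03 (unadjusted p = 0.020), and without DG Sal 1, Sal 2, METH 1 and METH 2 it was 1.501 (unadjusted p = 0.080). Of 5 dentate granule neuron markers, 4 were higher in DG METH (1 at an unadjusted p under 0.05, median log2 fold change 1.51), with a summed level of 116 to 317 CPM in Sal and 106 to 560 CPM in METH. Of 6 medium spiny neuron markers, 0 were higher (median -2.30), with 144 to 1350 CPM in Sal and 71.3 to 274 CPM in METH. Of 5 astrocyte markers, 5 were higher (2 at that level, median 0.28), with 1802 to 2238 CPM in Sal and 2618 to 2746 CPM in METH. The part of these cell types in the Hspa1b values was not tested. Within the tag JJ, Sal 3 had 0.252 CPM and METH 1 and 2 had 2.17 and 0.940 CPM.

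In the CA, Hspa1b had 1.57, 0.936, 1.91 and 0.841 CPM in Sal 1 to 4 and 0.945, 0.720, 0.845 and 0.577 CPM in METH 1 to 4, and the groups overlapped. It passed the filter on low counts in the CA mainly through its Sal libraries (10 to 31 reads, against 8 to 13 in METH). Its place among the genes tested there thus rests on the group where it is high. METH minus Sal was -0.78 in log2 units (SE 0.34, 95% interval -1.54 to -0.027), with an unadjusted p of 0.044 and an FDR of 0.688 by edgeR, and with no filter the p was 0.049. It did not pass an unadjusted p under 0.05 without Sal 1, Sal 3, METH 2, METH 3 or METH 4. In the tag Bo-RNA2, Sal had 1.91 CPM and METH 0.845 and 0.577 CPM, while in Bo-RNA3, Sal had 0.841 CPM and METH 0.945 and 0.720 CPM. The dentate granule markers were lower with it in CA METH. Of 5, 1 was higher and 2 were lower at an unadjusted p under 0.05 (median log2 fold change -0.90). Their sums were 436, 147, 608 and 209 CPM in CA Sal 1 to 4 and 136, 232, 320 and 267 CPM in METH 1 to 4, so Sal 1 and Sal 3 were highest in both these markers and Hspa1b. Their part in the Hspa1b values was not tested. In the NAc and SVZ, Hspa1b had too few reads for the filter. It ranged from 0 to 0.651 CPM in NAc Sal, where Sal 2 had 0 reads (up to 0.196 CPM), and from 0.169 to 1.68 CPM in NAc METH. In the SVZ it was 0.0968 to 0.335 CPM in Sal and 0.206 to 0.619 CPM in METH. With no filter, edgeR gave an unadjusted p of 0.10 in the NAc and 0.14 in the SVZ.

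The other 6 members did not pass an unadjusted p under 0.05 in any region in the edgeR fits of its 8 libraries without covariates. Over their 24 tests the log2 fold change lay between -0.32 and 0.35, 13 were higher and 11 lower in METH, and the lowest unadjusted p was 0.11. The 95% intervals excluded a change of 1 log2 unit in 24 of 24 tests and a change of 1.5-fold in 18 of 24. In 0 of these tests did the groups separate. The intervals limit the change but do not show that there was none. With the header tag as a covariate, 1 member passed an unadjusted p under 0.05 in the NAc (edgeR). It was 1 of these 6, since Hspb1 did not pass in that fit and Hspa1b was not tested there. Hsph1, Hspa8 and Hspd1 did not pass in it either (unadjusted p = 0.74, 0.84 and 0.55, edgeR). The member was thus Dnajb1, Hsp90aa1 or Hspe1. With 2 factors of unwanted variation in the fit, 2 members passed in the SVZ. Hspa1b was not tested there, so at least 1 of them belongs to these 6.

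Of the Hsp70 machinery, Hspa8, on rn6 chromosome 8 (44990014 to 44993179), had 579 ± 67.5 CPM in NAc Sal and 558 ± 60.9 CPM in NAc METH. The DG had 609 ± 66.4 CPM in Sal and 666 ± 70.9 CPM in METH, and the SVZ 621 ± 149 and 663 ± 135 CPM (SD, n = 4). The CA had 649 ± 43.0 and 651 ± 51.7 CPM. Its interval was tightest in the CA, with a log2 fold change of 0.0035 (95% interval -0.18 to 0.19). Hsph1 (rn6, chromosome 12 from 6322668 to 6341902), the nucleotide exchange partner of Hsp70, had its widest Sal range in the NAc, from 294 to 531 CPM. Its log2 fold changes were -0.081 in the NAc, 0.14 in the DG, 0.074 in the CA and -0.22 in the SVZ (SE 0.19, 0.16, 0.097 and 0.17). Dnajb1 (rn6, chromosome 19 from 24747178 to 24750919), the J-protein of the stress response, had log2 fold changes of -0.0061, -0.053, 0.059 and 0.18 in the same order (SE 0.085, 0.13, 0.076 and 0.14). Its CA interval ran from -0.11 to 0.23, while Hspb1, another textbook target of Hsf1, had groups that did not overlap there.

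Hsp90aa1 (rn6, chromosome 6 from 135107271 to 135112775), the inducible cytosolic Hsp90, lay in separate ranges by header tag in the CA. The CA Sal libraries 1 to 4 had 52.3, 50.6, 27.96 and 47.7 CPM and the METH libraries 56.0, 57.0, 27.6 and 30.7 CPM. The 3 CA libraries tagged Bo-RNA2 had 27.6 to 30.7 CPM, and the other 5, the merged Sal 1 and 2 among them, had 47.7 to 57.0 CPM, with both treatments on each side. In the DG, the 3 libraries tagged Bo-RNA3 had 42.1 to 53.9 CPM, all of them Sal, and the other 5 had 26.4 to 36.5 CPM. Hsp90aa1 had a log2 fold change of 0.35 in the NAc (SE 0.20, unadjusted p = 0.11, FDR 0.999, edgeR), -0.32 in the DG (SE 0.20), -0.062 in the CA (SE 0.28) and 0.31 in the SVZ (SE 0.20). With the tag as a covariate it was 0.16 in both the DG and the CA (unadjusted p = 0.49 and 0.11, edgeR). No such fit can be had for the SVZ, whose libraries all have 1 tag. In the NAc fit with the tag, the 1 member under an unadjusted p of 0.05 was Dnajb1, Hsp90aa1 or Hspe1. In the NAc, within the tag Bo-RNA3, Hsp90aa1 had a mean of 24.4 CPM in Sal and 38.4 CPM in METH (n = 2 each).

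**Figure D4:**
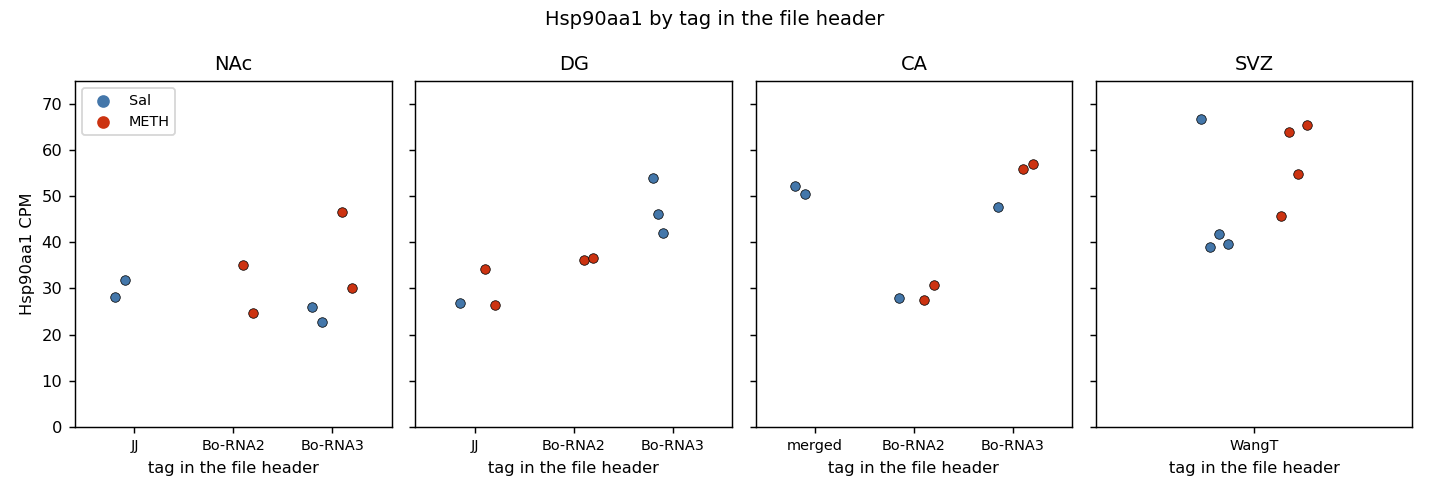
Hsp90aa1 (vertical axis, CPM) by the tag in the file headers (horizontal axis), with 1 panel per region. Points are libraries, blue for Sal and red for METH. In the CA the 3 libraries tagged Bo-RNA2 lie at 27.6 to 30.7 CPM for both treatments.

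Of the mitochondrial pair, Hspd1 (rn6, chromosome 9 from 61680530 to 61690956) and Hspe1 (rn6, chromosome 9 from 61692154 to 61694599) lie 1197 bases apart on opposite strands. Hspd1 had 115 ± 9.63 CPM in NAc Sal and 113 ± 10.9 CPM in NAc METH. In the DG these were 119 ± 12.3 and 105 ± 8.20 CPM, and in the SVZ 144 ± 26.2 and 144 ± 24.9 CPM (SD, n = 4). In the CA both means were 118 CPM. Its log2 fold changes were -0.0020, -0.16, -0.0036 and 0.020 in the NAc, DG, CA and SVZ. Hspe1 had 0.069, 0.062, -0.023 and 0.16 in the same order. For both genes the Sal and METH libraries overlapped in each region.

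Over the 4 regions, the shared METH effect was 0.78 for Hspb1 (log2 fold change, SE 0.40, unadjusted p = 0.058, FDR 0.682, edgeR) and 0.67 for Hspa1b (SE 0.33, unadjusted p = 0.050, FDR 0.667). At an unadjusted p under 0.05, 0 of 8 members passed, against 7.45% of the 16122 genes tested, and 0 members were called (0% of all genes). DESeq2 put 2 members under that unadjusted p and called 0. Without SVZ METH 3 the shared effect of Hspb1 was 0.29 (unadjusted p = 0.35). The METH effect differed between the 4 regions at an unadjusted p under 0.05 for 2 of 8 members, against 7.74% of all genes. They were Hspa1b (unadjusted p = 0.033, FDR 0.599) and Hspb1 (unadjusted p = 0.045, FDR 0.627), and 0 members reached an FDR under 0.01 (0% of all genes). Hspa1b passed the filter mainly through DG METH and CA Sal, the groups where it is highest. With no filter its unadjusted p was 0.034 for this difference (FDR 0.824) and 0.051 for the shared effect (edgeR). Without DG Sal 1, Sal 2, METH 1 and METH 2 the unadjusted p was 0.052 for Hspa1b and 0.16 for Hspb1. With each library left out in turn, the p of Hspb1 was 0.016 to 0.27 and was not under 0.05 in 22 of 32 fits, the highest without DG Sal 4. That of Hspa1b was 0.0075 to 0.092 and was not under 0.05 in 6 of 32, which left out NAc METH 1, CA Sal 1, CA Sal 3, CA METH 2, CA METH 3 or CA METH 4.

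Between the DG and the CA, 2 of 8 members differed in their METH effect at an unadjusted p under 0.05, against 15.4% of 15308 genes, and 0 were called (0% of all genes). For Hspa1b the CA effect minus the DG effect was -2.07 (log2 units, SE 0.53, 95% interval -3.20 to -0.94, unadjusted p = 0.0014, FDR 0.126, edgeR). Hspa1b passed the filter mainly through DG METH (13 to 35 reads) and CA Sal (10 to 31 reads), the groups where it is highest. With no filter the difference was -2.07 (unadjusted p = 0.0016, FDR 0.199, edgeR). All DG METH libraries lay above DG Sal, while the CA groups overlapped. The difference was -2.28 without DG Sal 1, Sal 2, METH 1 and METH 2 (unadjusted p = 0.0056). DESeq2 gave -2.14 with an FDR of 0.029. The dentate granule markers also had opposite directions, with a median log2 fold change of 1.51 in the DG (4 of 5 higher) and -0.90 in the CA (1 of 5 higher), and their part in this difference was not tested. For Hspb1 the difference was 1.74 (SE 0.80, unadjusted p = 0.046, FDR 0.315, edgeR), and 0.76 without DG Sal 4 (unadjusted p = 0.22).

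Among the saline libraries, 4 of 8 members differed between regions at an unadjusted p under 0.05 (Hspa1b, Hspb1, Hsp90aa1 and Hspd1), against 26.7% of 15515 genes, and 0 reached an FDR under 0.01 (0% of all genes). DESeq2 put 1 member, Hspa1b, under that FDR. Of the 48 tests of a member in a pair of regions, 15 passed an unadjusted p under 0.05. All genes passed in 11.5% (DG against NAc), 24.1% (CA against NAc), 12.6% (SVZ against NAc), 8.93% (CA against DG), 17.6% (SVZ against DG) and 31.6% (SVZ against CA). At an FDR under 0.01 and a fold above 2, 0 of the 48 passed, beside 0% of all genes in 4 of these pairs, 0.0193% in SVZ against DG and 0.812% in SVZ against CA.

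By mean level in saline, Hspa1b ran from the CA (1.31 ± 0.513 CPM) through the DG (0.609 ± 0.248) and the NAc (0.288 ± 0.280) to the SVZ (0.249 ± 0.111; SD, n = 4). The neighbours in this order did not differ beyond their spread, while the CA exceeded the NAc (log2 difference 2.16, unadjusted p = 0.0048, FDR 0.065, edgeR) and the SVZ (SVZ minus CA -2.34, unadjusted p = 0.0021, FDR 0.028). In the saline fit Hspa1b passed the filter through its CA libraries, the group where it is highest. With no filter the unadjusted p was 0.0044 against the NAc and 0.0019 against the SVZ (edgeR). Hsp90aa1 was lowest in the NAc, at 27.2 ± 3.83 CPM, against 42.2 ± 11.4 in the DG, 44.6 ± 11.3 in the CA and 46.8 ± 13.4 in the SVZ. The NAc differed from each of the others at an unadjusted p of 0.0046 to 0.021 (FDR 0.099 to 0.377, edgeR), and the other regions did not differ among themselves at an unadjusted p under 0.05. By header tag, JJ had 28.2 and 31.9 CPM in NAc Sal and 26.8 CPM in DG Sal. Bo-RNA3 had 26.0 and 22.8 CPM in NAc Sal, 42.1 to 53.9 CPM in DG Sal and 47.7 CPM in CA Sal. The part of the tag in these saline levels was not tested.

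Hspd1 and Hspe1 were highest in the SVZ, at 144 ± 26.2 and 27.0 ± 5.68 CPM, against means of 115 to 119 CPM for Hspd1 and 21.3 to 22.3 CPM for Hspe1 in the other regions. The 6 log2 differences to the SVZ were 0.29 to 0.36, with an unadjusted p of 0.016 to 0.049 (FDR 0.087 to 0.362, edgeR). All SVZ libraries have a header tag of their own, so tag and region cannot be told apart for them. Hspb1 was highest in DG Sal by its mean of 10.96 ± 10.9 CPM, with log2 differences of 1.86 to the NAc, 1.72 to the CA (CA minus DG -1.72) and 1.28 to the SVZ (SVZ minus DG -1.28). The unadjusted p was 0.0052, 0.0082 and 0.034. Without DG Sal 4 they were 0.89 to the NAc (unadjusted p = 0.052), -0.74 for CA minus DG and -0.31 for SVZ minus DG (unadjusted p = 0.096 and 0.46). Hsph1 and Hspa8 did not differ between any pair of regions at an unadjusted p under 0.05, and Dnajb1 differed in 1 pair (SVZ minus DG -0.32, unadjusted p = 0.016).

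Across libraries of the same group, the 6 abundant members were positively correlated. The correlation of their deviations from the group means, on log2(CPM + 0.5), lay between 0.34 and 0.74 in the 15 pairs, over 32 libraries. It was highest for Hspa8 with Hspd1 (0.74) and for Hspd1 with Hspe1 (0.72). In the 13 pairs with Hspb1 or Hspa1b it lay between -0.16 and 0.37. The points share libraries and depth, and the values are descriptions. The 5 other genes whose deviations were most like the mean of the members were Dnajc3 (Pearson correlation 0.82), Dnaja1 (0.80), Fam162a (0.79), Atp5pd (0.78) and Ahsa1 (0.77), among 16114 genes over 32 libraries. Dnajc3 is a J-protein of the endoplasmic reticulum, Dnaja1 a cytosolic partner of Hsp70, and Ahsa1 starts the ATPase of Hsp90.

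**Figure D5:**
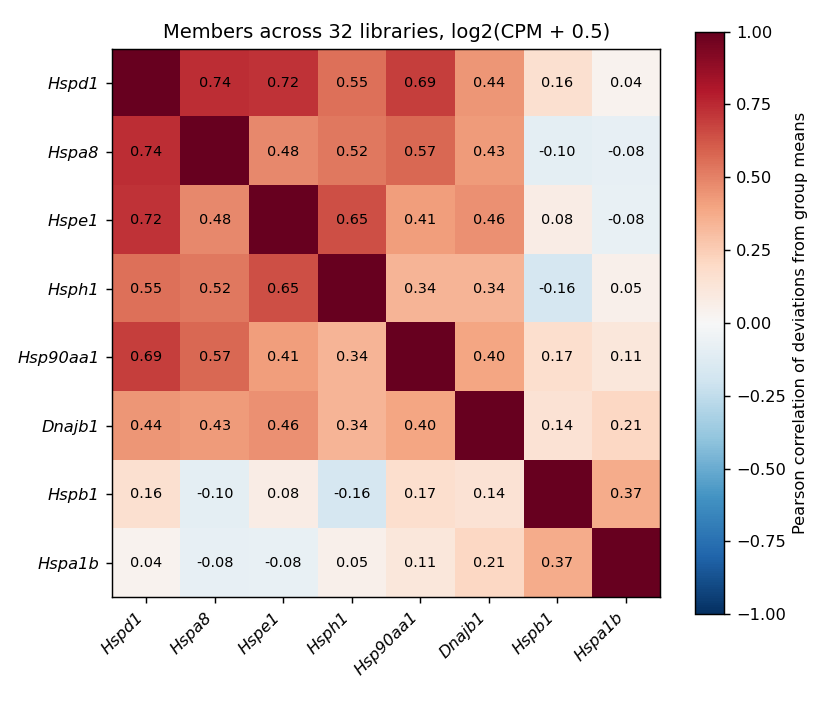
Pearson correlation between members (rows and columns) of deviations from group means over 32 libraries. Red is positive and blue negative, and the number is printed in each cell. The 6 abundant members form a block of 0.34 to 0.74, and Hspb1 and Hspa1b stand outside it.

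Of 67 other chaperone and heat shock genes, 63 passed the filter in the NAc, CA and SVZ and 64 in the DG, and 0 were called in any region. At an unadjusted p under 0.05, 3 were higher and 0 lower in METH in the NAc (4.76% of those tested), 3 higher and 4 lower in the DG (10.9%), 2 higher and 4 lower in the CA (9.52%), and 1 higher and 0 lower in the SVZ (1.59%). These shares stand beside 3.39%, 12.8%, 7.16% and 2.58% of all genes. The median log2 fold change of the list was 0.027, 0.0085, -0.0052 and 0.065.

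The 3 lowest p-values in the NAc were those of Hspb8 (log2 fold change 0.58, unadjusted p = 0.027), Serpinh1 (0.52, unadjusted p = 0.034) and Dnajc3 (0.20, unadjusted p = 0.049). Hspb8 is a small heat shock protein that works with Bag3, and Serpinh1 is the collagen chaperone Hsp47. In the CA, Serpinh1 was again higher, with 29.0 to 35.5 CPM in Sal and 39.8 to 49.7 CPM in METH (log2 fold change 0.43, SE 0.10, unadjusted p = 0.0019, FDR 0.669, edgeR). The groups did not overlap. Hspa12b (0.50, unadjusted p = 0.019) and Hspa2 (-0.43, unadjusted p = 0.026) followed in the CA. In the DG, Hspa2, an Hsp70 known from sperm formation, was at 9.34 to 16.8 CPM in Sal and 20.9 to 23.3 CPM in METH (log2 fold change 0.89, SE 0.17, unadjusted p = 0.00071, FDR 0.161, edgeR). Stub1, a ubiquitin ligase that binds Hsp70, had -0.41 (unadjusted p = 0.0070) and Hsf2 had 0.49 (unadjusted p = 0.0089). In the SVZ the lowest were Pdia4, a disulfide isomerase of the endoplasmic reticulum (0.31, unadjusted p = 0.018), Hspb8 (0.47, unadjusted p = 0.060) and Dnajc3 (0.30, unadjusted p = 0.073).

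Hsf1, the factor that drives the heat shock response, had log2 fold changes of 0.18, -0.33, 0.16 and 0.072 in the NAc, DG, CA and SVZ, with unadjusted p-values of 0.17, 0.14, 0.20 and 0.53. Hsp90ab1, the constitutive Hsp90, was at 1195 ± 71.1 CPM in NAc Sal and 1150 ± 85.6 CPM in NAc METH (SD, n = 4), and its log2 fold changes were -0.030, 0.19, -0.019 and -0.0012. The chaperones of the endoplasmic reticulum Hspa5 (0.011, 0.036, 0.010 and 0.35) and Hsp90b1 (0.13, -0.043, 0.099 and 0.19) did not pass an unadjusted p under 0.05 in any region, nor did the small heat shock protein Cryab (-0.12, -0.30, -0.27 and 1.10). Cryab in the SVZ was at 14.2 to 67.9 CPM in Sal and 31.0 to 134 CPM in METH, and there the 6 oligodendrocyte markers, whose cells express Cryab, summed to 3853 to 18885 CPM in Sal and 8496 to 27419 CPM in METH. The part of these cells in the Cryab values was not tested.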

How the data were processed

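RNA-seq read counts of 32 rat libraries (4 regions, saline or METH, 4 libraries per group) were analysed. According to the labels and methods, the authors trimmed reads with cutadapt 2.7, checked them with FastQC 0.11.4, mapped them to rn6 with STAR 2.5.2b and counted them per gene with featureCounts 1.6.3, without regard to strand and with a minimum mapping quality of 10. The deposited values are raw counts, and a series matrix of counts served as an alternative. Total counts were 11094002 to 21869773.

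Counts were normalized by the upper quartile, filtered with filterByExpr and tested with edgeR 4.0.16 (quasi-likelihood) in R 4.3.3, within each region (8 libraries), over all regions (32) and over saline libraries (16). P-values were adjusted over all genes tested by Benjamini-Hochberg. The study's removal of unwanted variation (RUVr) was left out of the fits reported, since the number of factors is not given in the sources used here, and 2 factors were an alternative. Other alternatives were TMM, DESeq2 1.42.0, no filter, CPM above 1 in at least 4 libraries, the replicate number or the tag in the file header as covariates, 1 fit of all libraries and leaving out each library. Fits without 4 DG libraries, with SVZ METH libraries of the same number summed and with a header mark (EXTRA) as covariate were chosen after seeing the data. The procedure was tested on simulated data. Python 3.11.15 served for tables (pandas 2.3.3) and plots (matplotlib 3.10.9).

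The members and lists were chosen with earlier results of these data known. All 9 members are named. Of the other chaperones, the 3 lowest p per region and Hsf1, Hsp90ab1, Hspa5, Hsp90b1 and Cryab are named, and likeness names the 5 genes with the highest correlation. Promoter sequences come from RefSeq (GRCr8), while gene positions are those of the count files (rn6). Replicate numbers did not pair the samples.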

Additional observations from a re-analysis of the deposited data

Results flagged for a closer look

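In 7 of 64 sets of 4 libraries (a member in a group), 1 library stood far from the other 3 by Dixon's criterion at its 95% critical value, where chance gives about 3.2. Hspb1 was high in DG METH 3 (10.1 CPM) and SVZ METH 3 (47.4 CPM), the 2 libraries with the most choroid plexus marker reads. SVZ Sal 1 was high in Dnajb1 (43.2 CPM) and Hsp90aa1 (66.8 CPM). Hsph1 was low in NAc METH 3 (287 CPM) and SVZ METH 1 (281 CPM), and Hspe1 was low in DG Sal 4 (17.7 CPM).

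The METH effect differed between regions for Hspa1b (unadjusted p = 0.033, edgeR with 3 interaction terms) and Hspb1 (unadjusted p = 0.045), with an FDR of 0.599 and 0.627. Hspa1b passed the filter mainly through DG METH and CA Sal, the groups where it is highest. For Hspb1 the p was 0.27 without DG Sal 4. The effect in the CA minus that in the DG was -2.07 for Hspa1b and 1.74 for Hspb1 on the log2 scale, with an FDR of 0.126 and 0.315.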

How the results depend on the processing

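For single members, 526 values kept their direction and side of the threshold under the alternatives that left out no single library, 20 turned direction and 2 became stronger. Since 0 members were called in the main fits, keeping that side says little about how firm a value is. A loss of an unadjusted p under 0.05, as for Hspb1 in the NAc with the tag covariate, was not counted as a change. Of the counts of members, 111 were within 1.5 times and 16 moved. The cause of these changes was not tested. With the header tag as covariate, log2 fold changes turned in the NAc for Hsph1 (0.10), Hspa8 (0.035) and Hspd1 (0.099), in the DG for Hspb1 (0.81), Dnajb1 (0.0997), Hsp90aa1 (0.16) and Hspe1 (-0.27), and in the CA for Hsp90aa1 (0.16), Hspe1 (0.093) and Hspd1 (0.12). This fit could not be made for the SVZ, which had 1 tag. Hspd1 in the NAc was 0.00031 with 2 RUVr factors. Hspa8 in the CA was -0.0045 with TMM, -0.00050 with the CPM filter, -0.0091 with DESeq2 and -0.00032 with the series matrix. Without DG Sal 1, Sal 2, METH 1 and METH 2, Dnajb1 was 0.17 and Hsp90aa1 0.058 in the DG, and their CA minus DG differences were -0.11 and -0.12. With SVZ METH libraries of the same number summed, Hspd1 was -0.00052. By DESeq2, Hspa1b differed between saline regions with a p of 0.00012 (FDR 0.0024) and its SVZ minus CA difference was -2.44 (FDR 0.0021), so 1 member was called, against 0 by edgeR.

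The number of members at an unadjusted p under 0.05 moved in the DG from 1 to 0 with the CPM filter, 2 with RUVr and 0 without the 4 DG libraries. In the CA it moved from 2 to 1 with the CPM filter, DESeq2, RUVr or the tag covariate, and to 0 in 1 fit of all 32 libraries. In the SVZ it moved from 0 to 2 with RUVr, and to 1 with summed libraries or 1 fit of all libraries. For the shared effect it was 2 by DESeq2 and 1 without the 4 DG libraries. Without those libraries it was 0 for the difference between the 4 regions and 1 for that between the DG and CA. In the NAc it stayed at 1 with the tag covariate, but that member was not Hspb1.

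Leaving out each library gave 1 to 2 such members in the NAc, DG and CA, 0 to 1 in the SVZ, 0 to 2 for the shared effect and for the difference between regions, 1 to 2 for the DG against the CA and 2 to 5 for saline levels, with 9 to 15 region pairs. The number called was 0 in each of these. Log2 fold changes that turned ranged in the NAc from -0.048 to 0.052 (Dnajb1), -0.19 to 0.084 (Hsph1), -0.11 to 0.043 (Hspa8), -0.020 to 0.11 (Hspe1) and -0.057 to 0.056 (Hspd1). In the DG they ranged from -1.41 to 0.038 (Hspb1), -0.11 to 0.061 (Dnajb1) and -0.085 to 0.14 (Hspe1). In the CA they ranged from -0.23 to 0.095 (Hsp90aa1), -0.034 to 0.045 (Hspa8), -0.15 to 0.056 (Hspe1) and -0.062 to 0.058 (Hspd1). In the SVZ they ranged from -0.10 to 2.12 (Hspb1) and -0.070 to 0.13 (Hspd1). The shared effect of Hsph1 ranged from -0.056 to 0.014, and the CA minus DG differences from -0.0022 to 0.18 (Dnajb1), -0.19 to 0.040 (Hsph1) and -0.20 to 0.065 (Hspe1).

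The replicate numbers did not pair the samples: the same-number correlation was over 0.1 in 1 of 4 pairs in the NAc, 3 in the DG, 2 in the CA and 1 in the SVZ. With the replicate block, Hspb1 was 1.28 in the NAc (unadjusted p = 0.018, edgeR), -0.56 in the DG, 0.82 in the CA (unadjusted p = 0.0029) and 0.71 in the SVZ, and Hspa1b was 1.31 in the DG and -0.73 in the CA. Over all genes the block moved the number at an unadjusted p under 0.05 from 500 to 295 in the NAc and from 402 to 167 in the SVZ. Depth limits Hspa1b, at 0 to 35 reads, and Hspa1a, at 0.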
